A study of Mus musculus with 4 samples.

Results

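Plasminogen activation was described here through 6 genes, chosen as the plasminogen activators Plau and Plat, the receptors Plaur and Plgrkt, and the serpins Serpine2 and Serpinf1. They were 6 of 35580 annotated genes with transcripts in the data, and all 6 passed the filter on low counts, which left 14185 tested genes. RNA sequencing compared Mmp3-positive with Mmp3-negative cells, both taken from the stromal vascular fraction (the cells of fat other than its adipocytes). All libraries came from subcutaneous adipose tissue of wild-type C57BL/6 mice, with 2 libraries of Mmp3-positive cells and 2 of Mmp3-negative cells. The sources used here give no age for the mice, and of the separation of the cells they give a reagent code alone. Nothing in the labels ties a library to an animal of its own, and the p-values reflect the variation among these libraries, part or all of which may be technical.

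Plasminogen is a liver-made zymogen that urokinase (uPA, from Plau) and tissue plasminogen activator (tPA, from Plat) cut to the protease plasmin. The urokinase receptor (uPAR, from Plaur) holds urokinase at the cell surface, and inhibitory serpins trap the activators in inactive complexes. Plasmin dissolves fibrin, degrades matrix proteins and can activate latent metalloproteinases, among them stromelysin-1, the product of Mmp3.

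Levels are given as CPM, counts relative to library size, except where another scale is named. The receptor gene Plaur and both serpin genes had their higher levels in both Mmp3-positive libraries, and both activator genes had their lower levels there. Plaur was 1.72-fold higher, Serpine2 2.24-fold higher and Serpinf1 1.49-fold higher, and Plau was 1.51-fold lower and Plat 1.38-fold lower, with n = 2 libraries per group and the errors given below. None of these differences passed the threshold of an adjusted p of 0.05 over all genes. With edgeR's quasi-likelihood test, 0 of 6 genes were called, 2 had an unadjusted p under 0.05 (Plaur and Serpinf1), and DESeq2 called the same 2. In all tested genes, 0.0211% were called by edgeR (0.00705% higher and 0.0141% lower), 8.87% had an unadjusted edgeR p under 0.05, and DESeq2 called 5.46% higher and 4.18% lower. In CPM the groups did not overlap for 5 of the 6 genes, 3 with both Mmp3-positive libraries above and 2 with both below. In all tested genes the groups did not overlap for 39.8%, with 22.5% above and 17.3% below. With 2 libraries per group, an exact permutation test of a single gene could not give a p below 0.333.

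The libraries held between 17693755 and 20286221 estimated counts. Mmp3, which defined the groups, stood at 4161 and 3409 CPM in the Mmp3-positive libraries, against 106 and 131 CPM in the Mmp3-negative libraries (edgeR adjusted p = 0.00793 for a log2 fold change of 4.999 with a standard error of 0.21). CPM are counts relative to library size, scaled by TMM, a normalisation between libraries. All 12 listed stromal fibroblast markers were detected, and their summed level was 29183 and 36898 CPM in Mmp3-positive against 21154 and 30292 CPM in Mmp3-negative libraries. Summed markers of the other cell types listed, mesothelial ones excepted, were lower in both Mmp3-positive libraries. The summed level of 12 endothelial markers was 234 and 226 CPM in Mmp3-positive against 473 and 324 CPM in Mmp3-negative libraries, that of 12 mural markers was 98.9 and 101 CPM against 815 and 794 CPM, and that of 12 macrophage and monocyte markers was 43.1 and 39.8 CPM against 337 and 160 CPM. The 8 Schwann cell markers summed to 24.1 and 16.5 CPM against 48.0 and 69.1 CPM, and the 10 adipocyte markers to 118 and 132 CPM against 241 and 268 CPM. The 6 mesothelial markers stood at 9.53 and 3.87 CPM in Mmp3-positive against 8.63 and 22.5 CPM in Mmp3-negative libraries, and those groups overlapped. Single markers did not all follow their sums. Both Mmp3-positive libraries lay below both others for 9 of 12 tested mural, 2 of 6 Schwann and 2 of 5 adipocyte markers. The groups overlapped for the rest of these. Of 3 tested mesothelial markers, 1 lay below, 1 lay above and 1 overlapped. In all tested genes 17.3% lay below and 22.5% above. Markers at 0 counts in both Mmp3-positive libraries included Adgre1, Lmod1, Erbb3, Cdh19, Lep, Cidec, Msln, Upk3b and Upk1b. Those at 0 in both Mmp3-negative libraries were Emcn, Mrc1, Adipoq, Lep, Cidec, Krt19, Lrrn4 and Upk1b. The part of these cell types in the differences below was not tested, and in bulk RNA fewer cells of a type and less RNA per cell cannot be told apart.

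**Figure D1:**
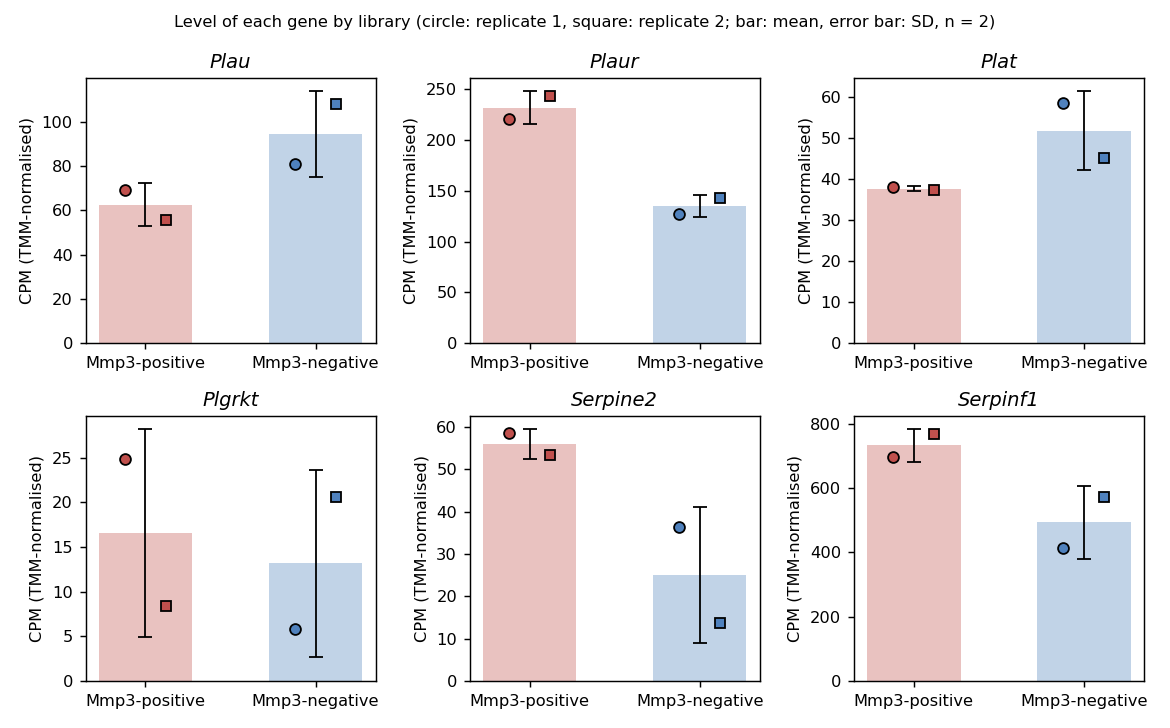
Level of each of the 6 genes in TMM-normalised CPM (vertical axes, starting at 0) in Mmp3-positive (red, left) and Mmp3-negative (blue, right) libraries. Points are libraries, bars are means and error bars are SD with n = 2. Both Mmp3-positive libraries lie above both Mmp3-negative ones for Plaur, Serpine2 and Serpinf1 and below them for Plau and Plat, and the Plgrkt libraries overlap.

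Plau (ENSMUSG00000021822) encodes the urokinase-type activator and lies on chromosome 14 of GRCm38 from 20836660 to 20843385 on the plus strand. Its level was 69.4 and 55.9 CPM in the Mmp3-positive libraries, against 80.9 and 108 CPM in the Mmp3-negative libraries. Both Mmp3-positive libraries were the lower ones, and the groups did not overlap. The means were 62.6 ± 9.59 CPM in Mmp3-positive and 94.6 ± 19.4 CPM in Mmp3-negative libraries (SD, n = 2 each), a log2 fold change of -0.60 with a standard error of 0.29 (edgeR unadjusted p = 0.0864 and adjusted p = 0.673, from the fit across all genes). Of all tested genes, 24.6% had a log2 fold change further below.

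Plat (ENSMUSG00000031538) encodes tissue plasminogen activator, which endothelial cells are known to release, and lies on chromosome 8 from 22757727 to 22782844 on the plus strand. It stood at 38.2 and 37.3 CPM in the Mmp3-positive libraries and at 58.7 and 45.1 CPM in the Mmp3-negative libraries. The Mmp3-positive pair was nearly level and lay below both others. Mean levels were 37.7 ± 0.628 CPM in Mmp3-positive and 51.9 ± 9.66 CPM in Mmp3-negative libraries (SD, n = 2 each), with a log2 fold change of -0.46 and a standard error of 0.35 (edgeR adjusted p = 0.913). The summed endothelial markers were also lower in both Mmp3-positive libraries. Of the 11 endothelial markers tested, both Mmp3-positive libraries lay below both Mmp3-negative ones for 7, above them for 0, and the groups overlapped for 4. In all tested genes 17.3% lay below and 22.5% above. The part of endothelial cells in the Plat difference was not tested.

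Plaur (ENSMUSG00000046223) encodes the urokinase receptor, a protein anchored to the membrane by a lipid, and lies on chromosome 7 from 24462484 to 24475968 on the plus strand. Its level was 220.4 and 244 CPM in the Mmp3-positive libraries, against 127 and 143 CPM in the Mmp3-negative libraries. The Mmp3-positive libraries differed from each other by 1.11-fold and the Mmp3-negative libraries by 1.12-fold, less than the 1.72-fold between the groups. The means were 232 ± 16.4 CPM in Mmp3-positive and 135 ± 10.9 CPM in Mmp3-negative libraries (SD, n = 2 each), with a log2 fold change of 0.78 and a standard error of 0.19 (edgeR unadjusted p = 0.00653 and adjusted p = 0.480, from the fit across all genes). DESeq2 gave a log2 fold change of 0.73 with a standard error of 0.16 and an adjusted p of 0.000218. Over all alternatives the log2 fold change of Plaur ran from 0.63 to 0.90 and its adjusted p from 0.000218 to 0.99994. Of all tested genes, 17.9% had a log2 fold change further above. Macrophages and monocytes are known to carry the receptor. Their summed markers stood at 43.1 and 39.8 CPM in Mmp3-positive against 337 and 160 CPM in Mmp3-negative libraries. Of the 11 tested, both Mmp3-positive libraries lay below both others for 8, above them for 0, and the groups overlapped for 3. In all tested genes 17.3% lay below and 22.5% above. The part of these cells in the Plaur difference was not tested.

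The stretch before the start of Plaur is shown because it was the only one of the 4 promoters found for these genes with an AP-1 motif. It covers 250 bases upstream of the RefSeq start on GRCm38.p6, chr7:24462233-24462482 on the plus strand, with motif matches in capitals.
Plaur: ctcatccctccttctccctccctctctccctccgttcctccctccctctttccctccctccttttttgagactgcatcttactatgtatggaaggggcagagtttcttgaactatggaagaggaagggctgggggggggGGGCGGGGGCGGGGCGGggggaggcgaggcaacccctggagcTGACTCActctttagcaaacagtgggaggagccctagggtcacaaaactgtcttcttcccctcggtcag
The AP-1 motif TGANTCA began 69 bases before the start, and 3 GC boxes (GGGCGG) stood in a run from 111 bases before it, the last of them sharing a base with its neighbour. Both strands were searched. Of 32851 promoters in the table, 6.75% held TGANTCA and 32.7% held GGGCGG in the same 250 bases. The windows of Serpine2 and Plgrkt held 6 and 2 GC boxes, and that of Serpinf1 none. The TATA box (TATAAA, in 12.4% of all promoters) and the ETS core (GGAAGT, in 19.7%) were in none of the 4 windows. The sequences are from RefSeq. Letters that match a motif are a description of the sequence, and no binding was measured.

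Plgrkt (ENSMUSG00000016495) encodes a membrane receptor that binds plasminogen through a C-terminal lysine, and lies on chromosome 19 from 29348599 to 29367390 on the minus strand. It stood at 24.8 and 8.35 CPM in the Mmp3-positive libraries and at 5.77 and 20.6 CPM in the Mmp3-negative libraries. One library in each group was high and the other low, so the groups overlapped. The Mmp3-positive libraries differed by 2.97-fold and the Mmp3-negative ones by 3.57-fold, more than the 1.26-fold between the groups. Mean levels were 16.6 ± 11.6 CPM in Mmp3-positive and 13.2 ± 10.5 CPM in Mmp3-negative libraries (SD, n = 2 each), with a log2 fold change of 0.33 and a standard error of 1.05 (edgeR adjusted p = 0.999). The direction turned with the processing, and the log2 fold change of Plgrkt was -0.17 in limma on log2(TPM + 1) and -0.29 under a transcript length offset. It was -0.66 without Mmp3-positive replicate 1, 0.91 without Mmp3-positive replicate 2, -0.32 without Mmp3-negative replicate 1 and 1.52 without Mmp3-negative replicate 2.

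Serpine2 (ENSMUSG00000026249) encodes protease nexin-1, a serpin that inhibits thrombin, urokinase and tissue plasminogen activator, and lies on chromosome 1 from 79794197 to 79861180 on the minus strand. Its level was 58.5 and 53.5 CPM in the Mmp3-positive libraries, against 36.4 and 13.7 CPM in the Mmp3-negative libraries. The Mmp3-positive libraries were the higher ones and close together, while the Mmp3-negative libraries differed by 2.66-fold. Mean levels were 56.0 ± 3.55 CPM in Mmp3-positive and 25.04 ± 16.1 CPM in Mmp3-negative libraries (SD, n = 2 each), with a log2 fold change of 1.16 and a standard error of 0.55 (edgeR unadjusted p = 0.0805 and adjusted p = 0.652, from the fit across all genes). This was the widest log2 fold change of the 6 genes, and 11.97% of all tested genes lay further above. Without Mmp3-negative replicate 1 it was 2.03 and passed the threshold (edgeR adjusted p = 0.0474), in a fit that called 1.44% of 16278 tested genes higher. Without Mmp3-negative replicate 2 it was 0.62. Over all alternatives the adjusted p of Serpine2 ran from 0.0474 to 1.

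Serpinf1 (ENSMUSG00000000753) encodes pigment epithelium-derived factor, a secreted serpin that does not inhibit proteases and is known as an inhibitor of blood vessel growth, and lies on chromosome 11 from 75409769 to 75422701 on the minus strand. It stood at 696 and 768 CPM in the Mmp3-positive libraries and at 413 and 572 CPM in the Mmp3-negative libraries. The lowest Mmp3-positive library lay above the highest Mmp3-negative one. The means were 732 ± 51.1 CPM in Mmp3-positive and 493 ± 113 CPM in Mmp3-negative libraries (SD, n = 2 each), with a log2 fold change of 0.57 and a standard error of 0.20 (edgeR unadjusted p = 0.0314 and adjusted p = 0.480, from the fit across all genes). DESeq2 gave an adjusted p of 0.0427 for a log2 fold change of 0.53. Without Mmp3-negative replicate 2 the log2 fold change was 0.83 and passed the threshold (edgeR adjusted p = 0.0453), in a fit that called 1.45% of 16358 tested genes higher, and without Mmp3-negative replicate 1 it was 0.35. Over all alternatives the adjusted p of Serpinf1 ran from 0.0427 to 0.99994.

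**Figure D2:**
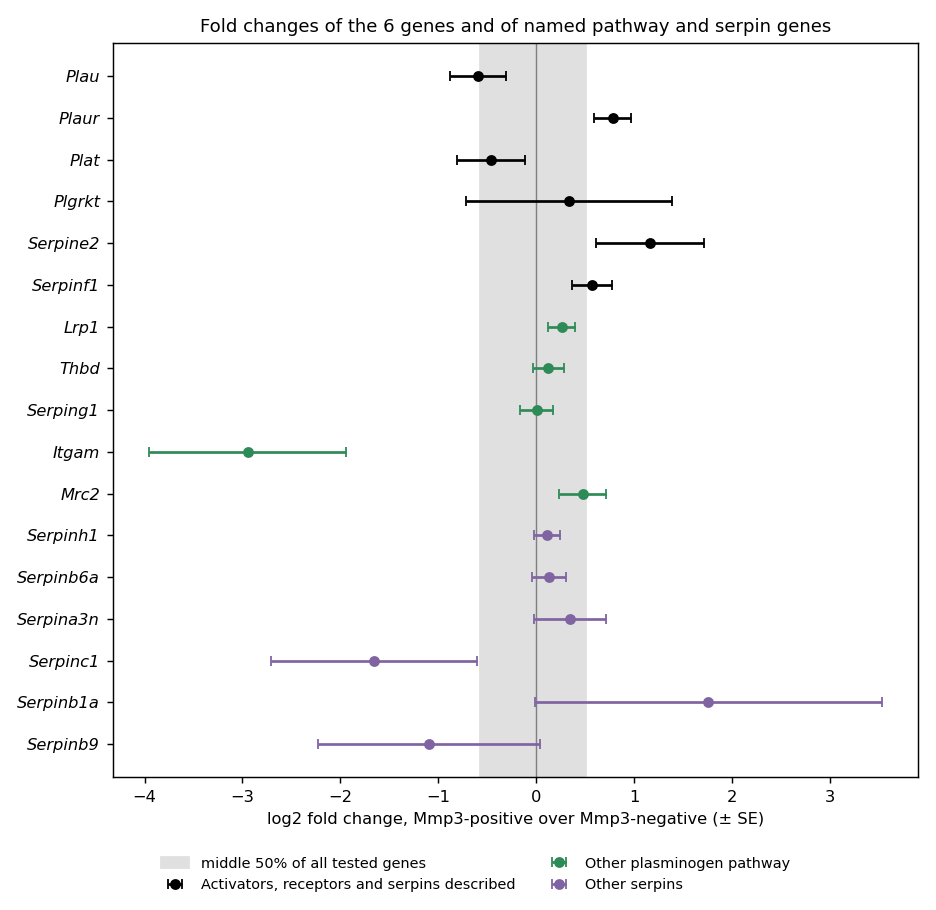
Log2 fold change of Mmp3-positive over Mmp3-negative cells (horizontal axis, points with standard errors) for the 6 genes (black), named genes of the plasminogen pathway (green) and other named serpins (purple). The grey band runs between the quartiles of the log2 fold changes of all tested genes (-0.58 to 0.51). Serpine2, Plaur and Serpinf1 lie to its right and Plau to its left, while Plat, Plgrkt, Lrp1 and Thbd lie inside it.

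Levels of different genes were compared per transcript length, as TPM within a library. Serpinf1 had the highest TPM of the 6 genes in all 4 libraries, at 1536 and 1524 TPM in Mmp3-positive and 629 and 1087 TPM in Mmp3-negative libraries. At most 0.444% of tested genes had a higher TPM than Serpinf1 in any library. Of that TPM, the 605-base transcript Serpinf1-202 held 39.7% and 41.8% in Mmp3-positive and 48.3% and 36.1% in Mmp3-negative libraries. Serpinf1-201, with the full annotated coding sequence, held 6.00% and 5.71%, against 0.0259% and 12.9%. The rank of the gene thus rests largely on short transcripts, whose share of the counts is uncertain. Plaur came second in all 4 libraries, at 276 and 262 TPM in Mmp3-positive and 91.7 and 227 TPM in Mmp3-negative libraries. The order of Plau, Plat, Plgrkt and Serpine2 below them changed between libraries. Serpine2 had rank 5 and 3 in the Mmp3-positive libraries and rank 4 and 6 in the Mmp3-negative libraries, so neighbours below Plaur were not separated beyond their spread. In TPM the groups overlapped for both activators. Plau stood at 41.3 and 29.6 TPM in Mmp3-positive and 34.9 and 65.8 TPM in Mmp3-negative libraries. For Plat these were 20.5 and 17.8 TPM against 18.7 and 23.0 TPM. TPM depend on a scale that differed between libraries: the median TPM per CPM over tested genes was 0.744 and 0.669 in the Mmp3-positive libraries and 0.429 and 0.748 in the Mmp3-negative ones.

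Ratios of TPM within a library do not depend on that scale. They still depend on how counts were split among transcripts of different length. Plau-202 held 47.4% of the Plau TPM in Mmp3-negative replicate 1 and 0% in the other libraries. The 347-base Plaur-205 held 18.9% and 8.52% of the Plaur TPM in Mmp3-positive and 0% and 33.6% in Mmp3-negative libraries. Plaur stood at 6.70 and 8.84 times the TPM of Plau in the Mmp3-positive libraries, against 2.63 and 3.46 times in the Mmp3-negative libraries. For the inhibitor Serpine2, the ratio to Plau was 0.898 and 1.02 in the Mmp3-positive libraries, against 0.578 and 0.144 in the Mmp3-negative libraries. Its ratio to Plat was 1.80 and 1.70 in Mmp3-positive libraries, against 1.08 and 0.412 in Mmp3-negative libraries. Groups did not overlap for any of these 3 ratios. Each sets a gene with higher CPM in both Mmp3-positive libraries over one with lower CPM there, so this largely restates those levels. The ratio of Plau to Plat was 2.01 and 1.67 in Mmp3-positive and 1.86 and 2.87 in Mmp3-negative libraries, and there the groups overlapped. These ratios were chosen with the levels known and were given no test.

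The deposited estimates were made per transcript, and the split of each gene's counts among its transcripts differed between libraries. Nearly all Serpine2 counts lay in the coding transcript Serpine2-201 in the Mmp3-positive libraries, at 99.7% and 99.6%, against 67.2% and 93.7% in the Mmp3-negative libraries. The retained-intron transcript Serpine2-205 held 1 and 0 estimated counts in Mmp3-positive libraries, against 120 and 15 in Mmp3-negative libraries. The coding transcript Plaur-201 held 3751 and 3103 estimated counts in Mmp3-positive libraries and 1575 and 1932 in Mmp3-negative libraries, with no overlap between the groups. Only 1 of its 1476 stretches of 31 bases was absent from every other listed transcript, so its estimates rest on how reads were shared within the gene. The coding transcript Plat-201 held 690 and 682 estimated counts in Mmp3-positive libraries and 1089 and 601 in Mmp3-negative libraries. Its groups overlapped, where those of the gene did not. The retained-intron transcript Plat-202 held 35.4 and 49.6 estimated counts in Mmp3-positive libraries, against 0 and 181 in Mmp3-negative libraries.

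All Plau counts were assigned to the coding transcript Plau-201 in 3 libraries. Plau-201 held 1319 and 1097 estimated counts in the Mmp3-positive libraries and 983 and 1879 in the Mmp3-negative libraries. Its groups overlapped, where those of the gene did not. In Mmp3-negative replicate 1 the 983 estimated counts were 65.5% of those of the gene. The other 517 were assigned to Plau-202, which GENCODE classes as a target of nonsense-mediated decay, the pathway that degrades messages with an early stop. The transcripts differ at the join of exon 2 to exon 3, shown here on the plus strand of chromosome 14. Capitals mark the 25 bases that Plau-202 carries and Plau-201 lacks and, in Plau-201, the first 20 bases of its exon 3.
Plau-202: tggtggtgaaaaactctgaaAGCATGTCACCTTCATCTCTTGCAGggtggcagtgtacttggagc
Plau-201: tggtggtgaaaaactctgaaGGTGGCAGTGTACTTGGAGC
Exon 3 of Plau-202 began at 20837585, that of Plau-201 at 20837610. The coding sequence annotated for Plau-202 was 105 bases, against 1299 bases in Plau-201. Plau-202 had 55 stretches of 31 bases of its own among the transcripts compared.

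Serpinf1 counts were spread over 8 transcripts. Serpinf1-201, with the full annotated coding sequence of 1251 bases, held 2255 and 2465 estimated counts in the Mmp3-positive libraries and 6.67 and 3051 in the Mmp3-negative libraries, so its groups overlapped where those of the gene did not. Serpinf1-203 held 1721 and 782 estimated counts in Mmp3-positive libraries, against 0 and 11.5 in Mmp3-negative libraries. The short coding transcript Serpinf1-202 had the highest mean TPM of the 8. Serpinf1-208, classed as a decay target, skips exons 3 and 4 of Serpinf1-201 and held 3487 and 4433 estimated counts in Mmp3-positive and 2098 and 2714 in Mmp3-negative libraries. Its join is shown beside that of Serpinf1-201, both from the minus strand of chromosome 11, with the exon after the join in capitals.
Serpinf1-208: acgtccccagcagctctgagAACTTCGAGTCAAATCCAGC
Serpinf1-201: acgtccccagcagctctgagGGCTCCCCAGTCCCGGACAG
Of the 10 Plgrkt transcripts, 6 had counts in some library. Transcripts classed as protein-coding held 51.6% and 34.1% of the Plgrkt counts in Mmp3-positive and 38.3% and 0% in Mmp3-negative libraries.

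**Figure D3:**
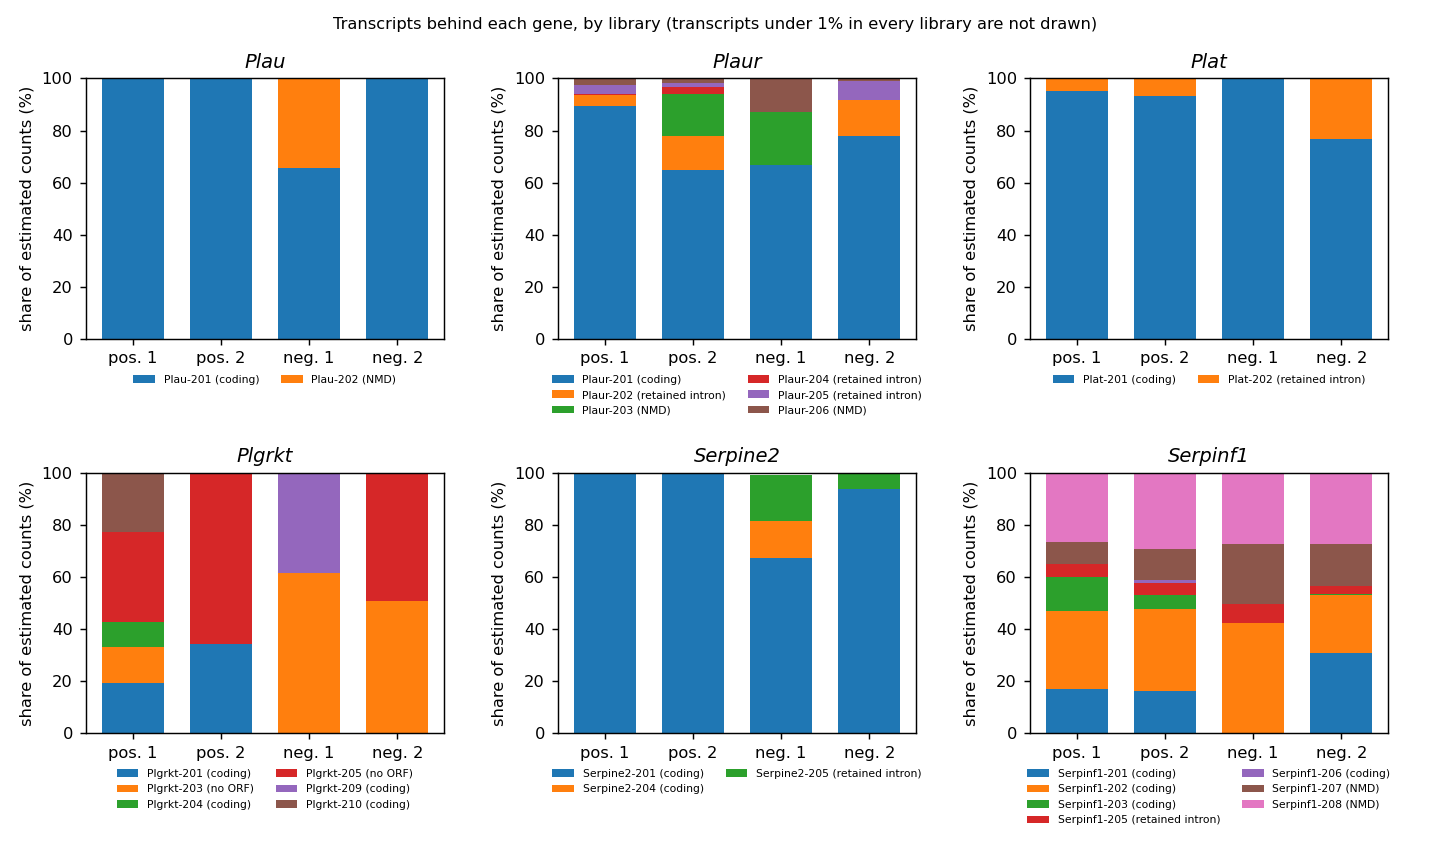
Share of each gene's estimated counts held by its transcripts (vertical axes, percent) in the 2 Mmp3-positive libraries (left) and the 2 Mmp3-negative libraries (right). Serpine2 and Plau are nearly all 1 coding transcript in both Mmp3-positive libraries, while Mmp3-negative replicate 1 has 65.5% in Plau-201 and 67.2% in Serpine2-201.

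The wider plasminogen pathway was followed in a list of 30 other genes, of which 19 were tested. None passed the threshold in edgeR (0 higher and 0 lower), 1 had an unadjusted p under 0.05 (Itgam), and DESeq2 called 0 higher and 1 lower, where 8.87% of all tested genes had such a p and DESeq2 called 5.46% higher and 4.18% lower. The median log2 fold change was 0.13 over the 19 genes and 0.02 over all tested genes. Both Mmp3-positive libraries lay above both others for 9 of the 19 and below them for 2, against 22.5% above and 17.3% below in all tested genes. Plasminogen itself (Plg) had 0 counts in all 4 libraries, which allows up to 3 counts or between 0.153 and 0.173 CPM per library, counting error only.

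The endocytic receptor Lrp1, which clears activator and inhibitor complexes, stood at 9016 and 9844 CPM in Mmp3-positive against 7365 and 8372 CPM in Mmp3-negative libraries (log2 fold change 0.26, edgeR adjusted p = 0.733). Mrc2, a collagen receptor that associates with the urokinase receptor, stood at 254 and 368 CPM against 200.3 and 247 CPM (log2 fold change 0.47, edgeR adjusted p = 0.717). The log2 fold change of Thbd, the thrombin receptor thrombomodulin, was 0.13. That of Serping1, the C1 inhibitor, was 0.00324 in edgeR and -0.04 in DESeq2, and the groups overlapped for both genes. Itgam, a leukocyte integrin subunit that binds plasminogen and is also on the macrophage list, stood at 4.16 and 4.79 CPM in Mmp3-positive against 58.3 and 10.8 CPM in Mmp3-negative libraries. Its log2 fold change was -2.95 with a standard error of 1.004 (edgeR adjusted p = 0.480, DESeq2 adjusted p = 0.00922).

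Of 27 other serpin genes, 12 had 0 counts in all 4 libraries and 7 were tested. None was called by edgeR or DESeq2 (0 higher and 0 lower in both), and 0 had an unadjusted edgeR p under 0.05. In all tested genes edgeR called 0.0211%, 8.87% had such a p, and DESeq2 called 5.46% higher and 4.18% lower. Both Mmp3-positive libraries lay above both others for 4 of the 7 and below them for 1, against 22.5% and 17.3% in all tested genes. The median log2 fold change of the 7 was 0.13. Serpins of the plasminogen pathway list, such as Serping1, were not among the 27. Of the 7 tested here, Serpinh1, the collagen chaperone Hsp47, was the most abundant in CPM. It stood at 1212 and 1246 CPM in Mmp3-positive against 1092 and 1186 CPM in Mmp3-negative libraries (log2 fold change 0.11, edgeR adjusted p = 0.998). Log2 fold changes were 0.13 for the intracellular inhibitor Serpinb6a, 0.34 for the secreted inhibitor Serpina3n, -1.66 for antithrombin (Serpinc1), 1.76 for the neutrophil elastase inhibitor Serpinb1a and -1.10 for the granzyme inhibitor Serpinb9. The last 3 had at most 22.5 CPM in any library and had standard errors between 1.05 and 1.77.

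Metalloproteinases, matrix proteins and latent growth factors that plasmin or its activators can cut made a list of 21 genes, all tested. Mmp3 defined the groups, so its call is no result of the list. Of the other 20 genes edgeR called 0 higher and 0 lower, 2 had an unadjusted p under 0.05 (Lamc1 and Igfbp5), and DESeq2 called 0 higher and 1 lower, against 8.87% with such a p and 5.46% and 4.18% called by DESeq2 in all tested genes. Both Mmp3-positive libraries lay above both others for 7 of the 20 and below them for 7, against 22.5% above and 17.3% below in all tested genes. The median log2 fold change was -0.05 over the 20 genes and 0.02 over all tested genes. Mmp10, a stromelysin close to Mmp3 in sequence, had 34 estimated counts in each Mmp3-positive library, against 1 and 0 in the Mmp3-negative libraries (edgeR adjusted p = 0.587). Only its Mmp3-positive libraries reached the filter's minimum count of 10. Its place among the 7 genes above was therefore set by the filter. The laminin chain Lamc1 stood at 1651 and 1938 CPM in Mmp3-positive against 1357 and 1411 CPM in Mmp3-negative libraries (log2 fold change 0.37, edgeR adjusted p = 0.525). The gelatinase Mmp2 stood at 921 and 996 CPM in Mmp3-positive against 778 and 761 CPM in Mmp3-negative libraries (log2 fold change 0.32, edgeR adjusted p = 0.610). Igfbp5, a binding protein for insulin-like growth factors, stood at 228 and 219 CPM in Mmp3-positive against 283 and 406 CPM in Mmp3-negative libraries (log2 fold change -0.62, edgeR adjusted p = 0.480, DESeq2 adjusted p = 0.0186). Fibronectin (Fn1) had a log2 fold change of -0.02 and overlapping groups.

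**Figure D4:**
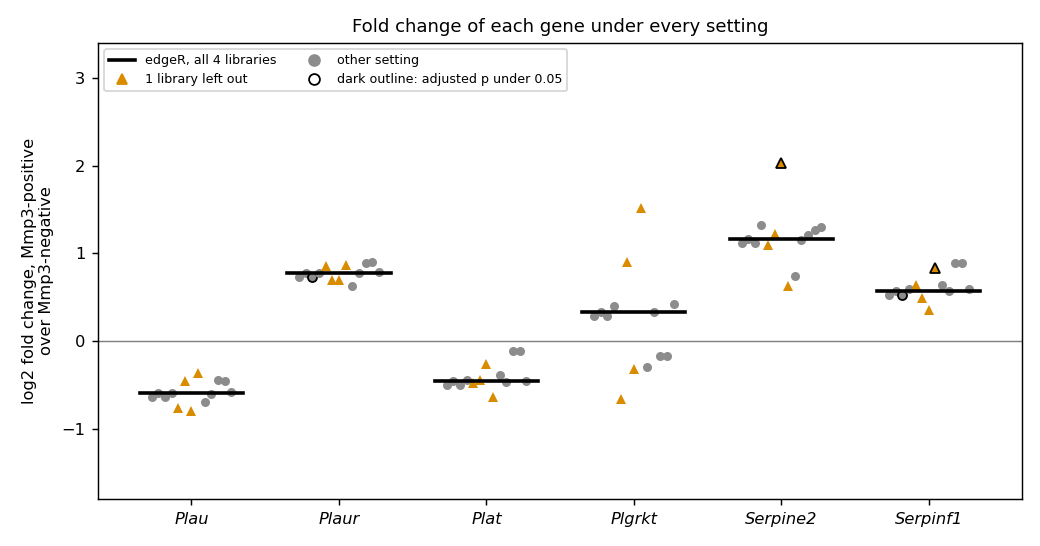
Log2 fold change of each of the 6 genes (vertical axis) with edgeR on all 4 libraries (black line) and under each alternative (triangles for 1 library left out, circles for other settings). Dark outlines mark an adjusted p under 0.05. Plau and Plat stay below 0 and Plaur, Serpine2 and Serpinf1 above 0 in each setting drawn, while Plgrkt runs from -0.66 to 1.52.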

How the data were processed

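The extraction kit was one made for formalin-fixed, paraffin-embedded tissue, and the strand-specific libraries followed depletion of ribosomal RNA, per the labels' protocols. Reads were quantified with kallisto 0.45.0 on GRCm38, per the submitters' processing notes. For 115270 transcripts the deposited tables held the estimated count, the effective length and the TPM, per the file headers. The sources used here do not give the transcript set, the strand setting or any trimming. Reads that fit several transcripts of a gene are divided by the quantification, which leaves the split within a gene uncertain.

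Transcripts were matched by identifier to GENCODE M21 (113580 of 115270, in 35580 genes). Lengths were equal for 99.0% of the matched transcripts. The transcripts' estimated counts were added up for each gene and rounded to whole numbers. Genes were kept by filterByExpr (minimum count 10), scaled by TMM and tested with edgeR 4.0.16 (quasi-likelihood, R 4.3.3), two-sided, without covariate, with Benjamini-Hochberg adjustment over all tested genes and a threshold of 0.05. Each standard error is the absolute log2 fold change divided by the root of its F statistic. The alternatives used DESeq2 1.42.0, limma 3.58.1 on log2(TPM + 1) and log2(TPM + 0.1), voom with a weight per group, other scaling and filtering, protein-coding genes only, a transcript length offset, a replicate block and each library left out. Where 1 library of a group remained, its spread was taken to equal that of the other group. The tests were tried on simulated counts. Stretches of 31 bases were compared on both strands over all matched transcripts.

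Named genes were the 6 genes, Mmp3, and of each list any gene called, the 4 of highest mean CPM and the 4 with the smallest p, and for each of the 6 genes the 2 genes nearest to it across libraries. A few genes that this rule or the marker lists name are not reported here. Plg was chosen after its values were seen. The genes, lists and ratios were chosen with earlier results of these data known. Promoters matched 4 of 6 genes. Plots and sums used Python 3.11.15, pandas 2.3.3 and matplotlib 3.10.9.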

Additional observations from a re-analysis of the deposited data

How the results depend on the processing

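The 6 genes gave 78 log2 fold changes under 13 alternatives. Of these, 69 kept their direction and side of the threshold, 4 came to pass it and 5, all of Plgrkt, turned. The 4 were Plaur (0.73) and Serpinf1 (0.53) with the DESeq2 Wald test, Serpine2 (2.03) without Mmp3-negative replicate 1 and Serpinf1 (0.83) without Mmp3-negative replicate 2. Plgrkt turned to -0.66 and -0.32 without Mmp3-positive or Mmp3-negative replicate 1, -0.17 and -0.18 in limma on log2(TPM + 1) and log2(TPM + 0.1), and -0.29 under the length offset. Leaving out each library gave ranges of -0.80 to -0.37 for Plau, -0.64 to -0.26 for Plat, 0.69 to 0.87 for Plaur, -0.66 to 1.52 for Plgrkt, 0.62 to 2.03 for Serpine2 and 0.35 to 0.83 for Serpinf1.

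Genes called higher and lower, 1 and 2 in edgeR, numbered 775 and 593 with DESeq2, 4 and 23 with no count filter, 11 and 18 with voom, 0 and 0 in limma on either TPM scale, 1 and 0 under the length offset, and 1 to 237 and 1 to 116 with a library left out. At an unadjusted p under 0.05, limma had 1064 genes on log2(TPM + 1) and 1163 on log2(TPM + 0.1), and the length offset 1176. Of the 6 genes, 2 were called higher with DESeq2 and 0 to 1 with a library left out. The plasmin target list was counted here with Mmp3, which defined the groups. In that list edgeR and DESeq2 each called 1 gene higher, Mmp3 itself. Limma called 0 higher, and DESeq2 called 1 lower. In the plasminogen pathway list DESeq2 called 1 lower and leaving out a library 0 to 1 lower. The median log2 fold change of all genes was 0.02 in edgeR, 0.29 with limma on log2(TPM + 1) and 0.37 on log2(TPM + 0.1), 0.12 with voom and with the block and 0.17 without either Mmp3-negative library. On the TPM scales Plaur stood at 0.89 and 0.90 and Plat at -0.11 and -0.12. In the fit with a replicate block, edgeR called 1 gene higher and 4 lower, and 0 of the 6 genes. The titles put 1 Mmp3-positive and 1 Mmp3-negative library in each of 2 numbered sets without saying what a set shares, and the deviations of same-set libraries from their group means had a correlation of 0.0422, so the block is given as an alternative. The cause of each difference was not tested. The TPM fits and the marker sums in TPM, which kept their direction, carry the difference in TPM scale between libraries.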

Other observations

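For each of the 6 genes, the genes with the most similar levels over the 4 libraries were found by Euclidean distance between centred log2(CPM + 1) values, among 9384 genes. The 4 points are 2 libraries of each group and each library's depth and scaling are common to all genes, so likeness here is a description. Col4a1, a chain of basement membrane collagen, was nearest to Plaur, at a distance of 0.0185, and Ccdc88a came next at 0.0479. Psmd12 and Zfp142 were nearest to Plau, at 0.0430 and 0.0431, and Map1b and Rhob to Plat, at 0.0332 and 0.0498. Dip2c and Hddc3 were nearest to Serpinf1, at 0.0667 and 0.0717. The nearest genes to Plgrkt lay further off, with Ovca2 and Swt1 at 0.141 and 0.169, and Paip1 stood at 0.175 from Serpine2. Between 36 genes (Plgrkt) and 111 genes (Serpine2) had a Pearson r of at least 0.99 with one of the 6 genes over these 4 libraries.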
